A study of Mus musculus with 6 samples.

Results

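A set of 10 transcription factor genes known to promote or restrain the effector state of regulatory T cells (Treg cells) was followed in Treg cells labelled as Bcl11b knockout and wild type. The members were chosen by name, as Irf4, Batf, Nfil3, Prdm1, Maf, Bach2, Id2, Id3, Myb and Bhlhe40. All 10 were found, among 24424 genes of a read count table and among 23393 genes of a second, normalized table.

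Treg cells are T cells that carry the factor Foxp3 and hold back immune responses. After antigen contact, resting Treg cells of lymphoid organs become effector Treg cells, which leave for tissues and make suppressive mediators. IRF4 and BATF bind DNA together and drive this step, PRDM1 (Blimp-1) and MAF act in its later stages and on the cytokine gene Il10, and BACH2 restrains it by occupying sites that AP-1 factors use. ID2 and ID3 lack a DNA-binding region and hold E proteins away from DNA, so the ratio of the E protein inhibitors to each other is often followed as T cells mature.

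The study asked how removal of Bcl11b, a zinc finger factor that T cells need for their identity, alters the Treg transcriptome. RNA of cells sorted from mouse spleen and peripheral lymph nodes was sequenced in 3 groups of 2 libraries. KO_EAE libraries were labelled as Bcl11b KO at EAE, an abbreviation that usually stands for experimental autoimmune encephalomyelitis, a model of multiple sclerosis. KO libraries were labelled as Bcl11b KO in the steady state, and both of these groups have the strain entry Bcl11bF/WT Foxp3YFP-Cre +/-, which names 1 floxed and 1 wild-type allele although the genotype entry reads KO. WT libraries, also in the steady state, have the strain entry Bcl11bF/F with no Cre named. The Cre is driven by Foxp3 and therefore acts in Foxp3-expressing cells, and Cre and genotype cannot be told apart. No WT library with EAE was analysed here, so KO_EAE against WT joins genotype and EAE. The labels give no age, sex, number of animals or pooling. They do not say whether the replicates are different mice or different sorts either, so p-values here measure the spread between these libraries only, which may be technical.

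Total counts were 15525373 to 15704030 in KO_EAE, 14663542 to 16904312 in KO and 16501787 to 16512337 in WT libraries, and 3 reads, taken as the lower limit of a library, correspond to 0.177 to 0.205 CPM (counts-per-million), a limit that covers counting error only. Levels below are CPM after TMM scaling unless stated. Whole-gene Bcl11b reads were 404 and 278 CPM in KO_EAE, 371 and 370 CPM in KO, and 420 and 425 CPM in WT libraries. This count does not isolate the floxed part. The KO_EAE libraries spanned both KO libraries, and without KO_EAE replicate 1 the log2 change of KO_EAE over WT was -0.61. For KO over WT the log2 change was -0.19 (edgeR, adjusted p = 0.527). In the normalized table described further on, Bcl11b was lower in KO by more, at -0.88 (limma, adjusted p = 0.065, which passed 0.05 with a pseudocount of 5, at 0.0447, and with the replicate block, at 0.02), and the authors' deposited table lists it at -0.80 (adjusted p = 7.91e-08). Foxp3 had 163 and 149 CPM in KO_EAE, 165 and 155 CPM in KO, and 211 and 206 CPM in WT libraries. It was called lower in KO_EAE than in WT (log2 change -0.42, edgeR adjusted p = 0.0242) and in KO than in WT (-0.38, 0.0254), and both calls were lost without any 1 of the KO or WT libraries (adjusted p of 0.0576 to 0.185), that of KO_EAE also without KO_EAE replicate 2 (0.0683). In the normalized table its change was -0.07 and not called. None of the 13 matched genes of a list of Treg and T cell markers was at 0. Markers of other cell types differed between the groups. All 15 markers of macrophages and dendritic cells were read in every group, with a summed level of 1759 to 2033 CPM in KO_EAE, 1920 to 2360 CPM in KO and 363 to 373 CPM in WT libraries. Of the 15, 12 were called higher in KO than in WT and none lower. Markers of NK cells summed to 154 to 257 CPM in KO_EAE, 193 to 201 CPM in KO and 80.5 to 90.3 CPM in WT libraries, with Klra8 at 0 throughout. In bulk RNA, fewer cells of a type and less RNA per cell cannot be told apart.

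In the count table, 2 of the 10 factors were lower and 1 was higher in steady-state KO than in WT Treg cells. The genes that fell were Irf4, a central driver of the effector state, and Nfil3, a leucine zipper repressor also called E4BP4. The gene that rose was Id2, an inhibitor of E proteins. These 3 calls at an adjusted p under 0.05 compare with 12.9% of the 14548 genes tested (edgeR quasi-likelihood test, Benjamini-Hochberg adjustment over all genes), of which 9.41% were higher and 3.46% lower. The libraries of KO and WT did not overlap for 6 members, with Id2 and Maf higher and Irf4, Nfil3, Bach2 and Bhlhe40 lower in KO, and such separation was seen for 65.2% of all genes, 32.7% higher and 32.5% lower. All 3 calls held with each library left out in turn, with adjusted p up to 0.0249 for Irf4, 0.0252 for Nfil3 and 0.0486 for Id2. A fit of only the 4 KO and WT libraries called 5 members, adding Maf and Bach2. The median log2 change of the 10 members was -0.08, and that of all genes was -0.0082. Of the 3 called members, only Id2 was also called in the normalized table described further on, where 7 of 9 alternatives lost the call.

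**Figure D1:**
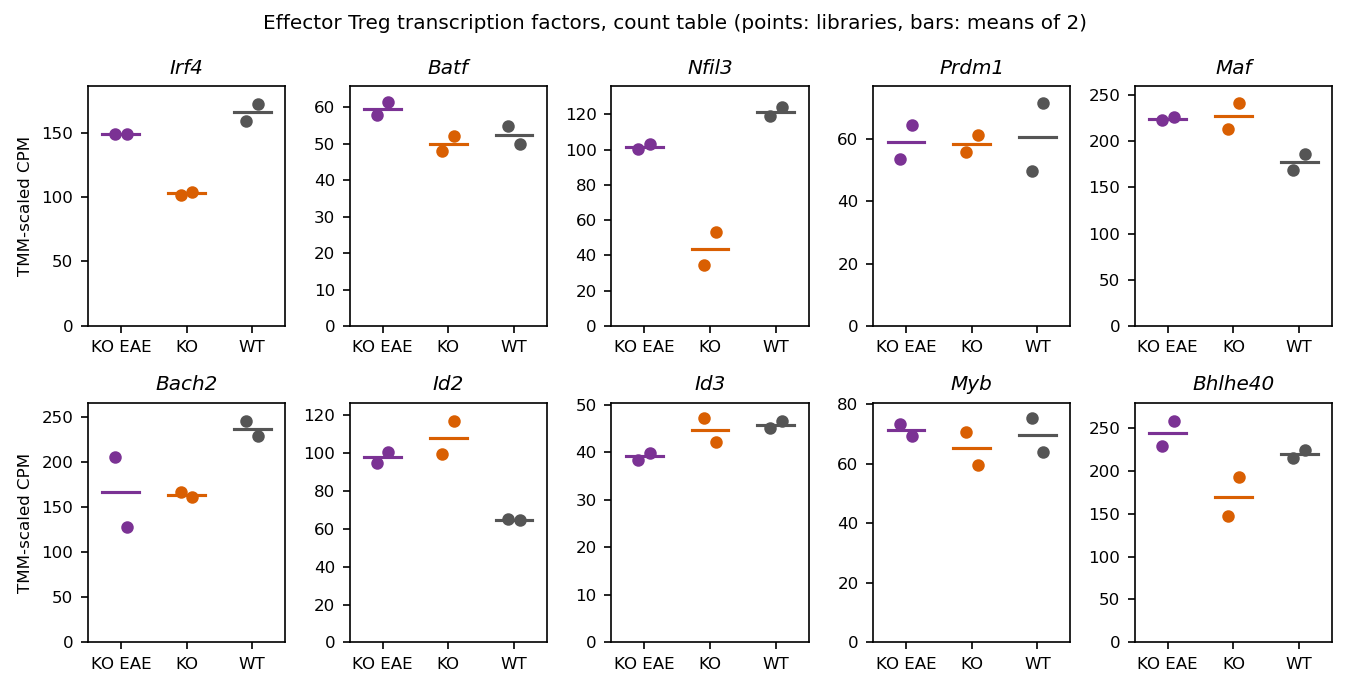
Level of each of the 10 factors in every library of the count table, with TMM-scaled CPM on the vertical axis and the groups KO EAE, KO and WT on the horizontal axis; points are libraries and bars are means of 2. Both KO libraries lie below all others for Irf4 (102 and 104 CPM) and Nfil3 (34.5 and 53.2 CPM), and both WT libraries lie below all others for Id2 (65.0 and 64.5 CPM).

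Irf4 (ENSMUSG00000021356.10, chromosome 13, 30749226 to 30766976, plus strand, GRCm38) had 149 and 149 CPM in KO_EAE, 102 and 104 CPM in KO, and 159 and 172 CPM in WT libraries. The 3 groups did not overlap, and KO was lowest and WT highest. Between KO and WT, the log2 change was -0.69 ± 0.07 (SE; edgeR, adjusted p = 0.00193), with means of 103 ± 1.80 CPM in KO and 166 ± 9.05 CPM in WT (SD, n = 2 each).

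Nfil3 (ENSMUSG00000056749.7, chromosome 13, 52967209 to 52981073, minus strand, GRCm38) had 100.1 and 103 CPM in KO_EAE, 34.5 and 53.2 CPM in KO, and 119 and 124 CPM in WT libraries. Again KO was lowest, KO_EAE intermediate and WT highest, with no overlap, but the KO libraries stood 0.63 apart on the log2 scale, the widest gap between KO replicates among the 10 genes. The log2 change of KO over WT was -1.47 ± 0.19 (edgeR, adjusted p = 0.00481), the largest change of any member. Without KO replicate 1 or KO replicate 2 the value lay between -1.82 and -1.19.

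Because Irf4 and Nfil3 were lower together, their promoters are shown from 250 to 51 bases before the RefSeq start, a window that holds no annotated exon. Both are from RefSeq (GRCm38.p6), written 5′ to 3′ on the strand of the gene. Capitals in Irf4 mark the 2 matches, on either strand, to a loose kappaB pattern GGGNNNNNCC, the kind of site that NF-kappaB factors bind. Capitals in Nfil3 mark its 1 match to the E-box CANNTG, the core that E proteins and BHLHE40 read.
Irf4, chr13:30748983-30749182, plus strand: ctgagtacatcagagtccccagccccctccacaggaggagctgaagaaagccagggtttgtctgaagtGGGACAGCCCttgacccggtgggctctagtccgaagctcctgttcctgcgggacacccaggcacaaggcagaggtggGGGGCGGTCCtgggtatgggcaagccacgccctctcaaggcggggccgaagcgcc
Nfil3, chr13:52981090-52981289, minus strand: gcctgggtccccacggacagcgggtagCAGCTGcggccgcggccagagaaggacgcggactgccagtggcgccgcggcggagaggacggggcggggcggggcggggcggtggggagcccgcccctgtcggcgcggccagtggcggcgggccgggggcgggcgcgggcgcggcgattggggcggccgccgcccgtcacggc

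The kappaB matches of Irf4 begin 182 and 105 bases before the start, and the E-box of Nfil3 begins 223 bases before it. G and C made up 65.0% of the Irf4 window and 84.0% of the Nfil3 window. The kappaB pattern occurred in 37.2% and the E-box in 59.0% of 32851 promoter windows of the same length, so each match is common. Windows were held for 8 of the 10 members, and those of Maf and Bhlhe40 were not searched. The windows of Batf, Id2 and Id3 overlap annotated exons of the same genes. Those of Prdm1 (44458799 to 44458998) and Bach2 (32417185 to 32417384) lie inside the annotated genes, far from their outermost starts. None of the 8 held the AP-1 site TGANTCA (5.57% of all windows), the NFIL3 site TTANGTAA (1.76%), the BHLHE40 site CACGTG (4.34%), the paired IRF pattern GAAANNGAAA (2.4%) or the MAF half-site TGCTGA (13.1%). E-boxes were found in 4 of the 8 and kappaB matches in 4 of the 8. These matches describe letters in a window and not binding.

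Batf (ENSMUSG00000034266.6, chromosome 12, 85686669 to 85709087, plus strand), the leucine zipper partner of IRF4, had 57.9 and 61.5 CPM in KO_EAE, 48.1 and 52.1 CPM in KO, and 54.9 and 50.03 CPM in WT libraries. KO and WT overlapped, and the log2 change of -0.07 ± 0.09 was not called (adjusted p = 0.68). Relative to Batf within each library, Irf4 had 2.57 and 2.42 reads per Batf read in KO_EAE, 2.12 and 1.999 in KO, and 2.90 and 3.44 in WT. The ratio of Irf4 to Batf reads was thus lowest in KO, with no overlap between the groups.

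Id2 (ENSMUSG00000020644.9, chromosome 12, 25093799 to 25097140, minus strand) had 94.6 and 101 CPM in KO_EAE, 99.2 and 117 CPM in KO, and 65.0 and 64.5 CPM in WT libraries. WT was lowest and the other groups overlapped each other. The log2 change of KO over WT was 0.74 ± 0.10 (edgeR, adjusted p = 0.0053). Its relative Id3 (ENSMUSG00000007872.3, chromosome 4, 136143497 to 136145755, plus strand), which resting T cells use to hold E proteins in check, had 38.4 and 39.8 CPM in KO_EAE, 47.2 and 42.1 CPM in KO, and 45.0 and 46.6 CPM in WT libraries. KO and WT overlapped for Id3, with a log2 change of -0.04 ± 0.10 (adjusted p = 0.832).

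Read against Id3 in the same library, Id2 gave a ratio of 2.46 and 2.53 in KO_EAE, 2.10 and 2.78 in KO, and 1.44 and 1.38 in WT libraries. Both groups labelled KO lay above WT, while they overlapped each other. The ratio is free of library scaling, since both counts come from 1 library. Myeloid cells also transcribe Id2, and the myeloid marker sum was 1920 to 2360 CPM in KO against 363 to 373 CPM in WT; its part in the Id2 difference was not tested.

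**Figure D2:**
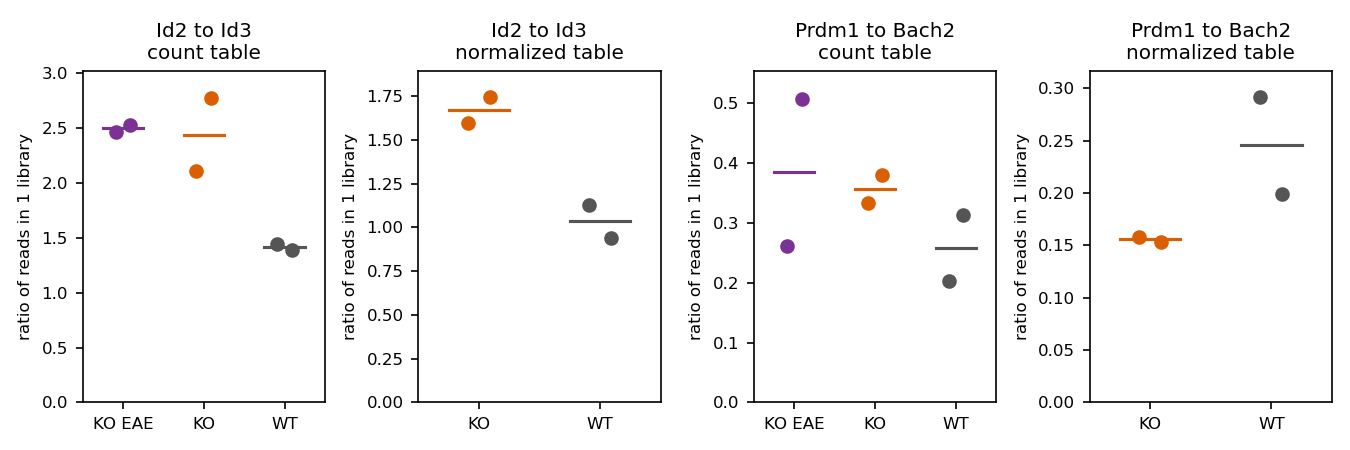
Ratio of Id2 to Id3 reads and of Prdm1 to Bach2 reads within each library of the count table (KO EAE, KO and WT) and of the normalized table (KO and WT); points are libraries and bars are means of 2. The Id2 to Id3 ratio is higher in KO than in WT in both tables, whereas the Prdm1 to Bach2 ratio is higher in KO in the count table (0.334 and 0.380 against 0.203 and 0.313) and lower in the normalized table (0.158 and 0.153 against 0.291 and 0.199).

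Maf (ENSMUSG00000055435.6, chromosome 8, 115682942 to 115707794, minus strand), a leucine zipper factor that acts on Il10 in T cells and is also active in macrophages, had 223 and 226 CPM in KO_EAE, 213 and 241 CPM in KO, and 169 and 186 CPM in WT libraries. WT was lowest and did not overlap the other groups. The log2 change of KO over WT was 0.36 ± 0.09 (edgeR, adjusted p = 0.0567), which is not a call, although DESeq2 gave an adjusted p of 0.0122 for the same size. With either KO_EAE library left out of the fit, edgeR also called Maf (adjusted p = 0.0444 and 0.0436). Myeloid markers differed in the same direction, and their part in the Maf difference was not tested.

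Prdm1 (ENSMUSG00000038151.13, chromosome 10, 44437177 to 44528501, minus strand), the repressor Blimp-1 of late effector cells, had 53.7 and 64.5 CPM in KO_EAE, 55.7 and 61.2 CPM in KO, and 49.7 and 71.5 CPM in WT libraries. All 3 groups overlapped, and the WT libraries had the widest gap (0.52 on the log2 scale). The log2 change of KO over WT was -0.05 ± 0.18 (adjusted p = 0.878). Its sign turned when WT replicate 2 was left out (0.23) and when KO replicate 1 was (0.018), so the data give it no direction.

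Bhlhe40 (ENSMUSG00000030103.11, chromosome 6, 108660629 to 108666925, plus strand), a basic helix-loop-helix repressor that activated T cells induce, had 229 and 258 CPM in KO_EAE, 147 and 193 CPM in KO, and 215 and 224 CPM in WT libraries. KO was lowest without overlap. The log2 change of KO over WT was -0.37 ± 0.14 (edgeR, adjusted p = 0.142), not past the threshold. As for Nfil3, the lower of the KO libraries was replicate 1, 0.39 below replicate 2 on the log2 scale.

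Among the genes of resting cells, Bach2 (ENSMUSG00000040270.16, chromosome 4, 32238804 to 32586108, plus strand) had 205 and 127 CPM in KO_EAE, 167 and 161 CPM in KO, and 245 and 228 CPM in WT libraries. WT was highest, and the KO_EAE libraries, 0.69 apart on the log2 scale, spanned both KO libraries. The log2 change of KO over WT was -0.53 ± 0.21 (edgeR, adjusted p = 0.159). Fits without KO_EAE replicate 1 or without KO_EAE replicate 2 called Bach2 lower in KO (adjusted p = 0.00513 and 0.00548) at nearly the same size (-0.54 and -0.53). With all 6 libraries the spread of the KO_EAE pair enters the shared estimate of error. Prdm1, which BACH2 is known to repress in B cells, gave 0.262 and 0.507 reads per Bach2 read in KO_EAE, 0.334 and 0.380 in KO, and 0.203 and 0.313 in WT libraries. The ratio was higher in KO than in WT without overlap, and KO_EAE spanned the other groups in part.

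Myb (ENSMUSG00000019982.15, chromosome 10, 21124935 to 21160984, minus strand), which Treg cells need for their effector stage, had 73.2 and 69.2 CPM in KO_EAE, 70.6 and 59.6 CPM in KO, and 75.1 and 63.9 CPM in WT libraries. All 3 groups overlapped, with a log2 change of KO over WT of -0.09 ± 0.12 (adjusted p = 0.66). Exons of Maf, Bach2, Myb and Bhlhe40 share 440, 537, 559 and 118 bases with the antisense genes Gm15655, Bach2os, Gm26577 and 0610040F04Rik. The use of strand in counting is not stated, so reads from those bases cannot be assigned to 1 of the genes. No annotated gene shares exon bases with the other members.

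Members differed in abundance as well. Per kilobase of exon in the count table, Bhlhe40 led in KO_EAE (51.7 ± 4.39 CPM per kb), Id2 in KO (44.3 ± 5.11) and Nfil3 in WT (60.003 ± 1.66; SD, n = 2 each). In KO_EAE, Bhlhe40 was followed by Nfil3 at 50.2 ± 1.09 CPM per kb, and in KO, Id2 was followed by Bhlhe40 at 36.04 ± 6.90 CPM per kb, so the replicates of the leading pair overlapped in each. Nfil3 ranked 2 in KO_EAE, 6 in KO (21.6 ± 6.55 CPM per kb) and 1 in WT. Myb was lowest in each group, at 7.97 ± 0.313, 7.29 ± 0.868 and 7.78 ± 0.892 CPM per kb in KO_EAE, KO and WT, with Prdm1 next above it. The normalized table gave another order for the same groups. There Id2 led in KO (2473 ± 18.8 signal per kb, with Id3 next at 2019 ± 110.01) and Id3 in WT (1838 ± 129, with Id2 next at 1390 ± 81.4), Nfil3 ranked 4 in KO and 5 in WT, and the lowest member was Prdm1 in KO (65.3 ± 9.16) and Myb in WT (100.2 ± 8.10).

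With EAE, KO Treg cells had higher levels of Irf4, Nfil3, Batf and Bhlhe40 than KO cells at steady state, without overlap, and a lower level of Id3, but edgeR called none of the 10. It called 0.0137% of all genes, 2 of 14548, whereas 1378 (9.47%) had an unadjusted p under 0.05 and DESeq2 called 131. Groups that did not overlap were found for 38.3% of all genes, 17% higher and 21.3% lower. The median log2 change of KO_EAE over KO was 0.07 over the members and -0.0027 over all genes. The KO libraries are shared with the comparison of KO and WT above, so an unusually low KO value would enter both with opposite signs.

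Nfil3 changed by 1.22 ± 0.19 on the log2 scale in KO_EAE over KO (edgeR, unadjusted p = 0.000631, adjusted p = 0.34), with means of 102 ± 2.21 CPM in KO_EAE and 43.8 ± 13.3 CPM in KO. Irf4 changed by 0.53 ± 0.07 (unadjusted p = 0.00026, adjusted p = 0.267), with means of 149 ± 0.0418 CPM in KO_EAE and 103 ± 1.80 CPM in KO. DESeq2 called both of them, with adjusted p of 7.67e-06 for Nfil3 and 7.35e-05 for Irf4, and these were the 2 members it called. Without KO_EAE replicate 1, edgeR called Irf4 (adjusted p = 0.0477) and no other member. Bhlhe40 changed by 0.52 ± 0.14 (edgeR, adjusted p = 0.489) and Batf by 0.25 ± 0.09 (adjusted p = 0.51). Id3 had a log2 change of -0.19 ± 0.10 (adjusted p = 0.573). Id2, Maf, Prdm1, Bach2 and Myb overlapped between KO_EAE and KO, with log2 changes of -0.15, -0.02, 0.02, 0.02 and 0.13.

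**Figure D3:**
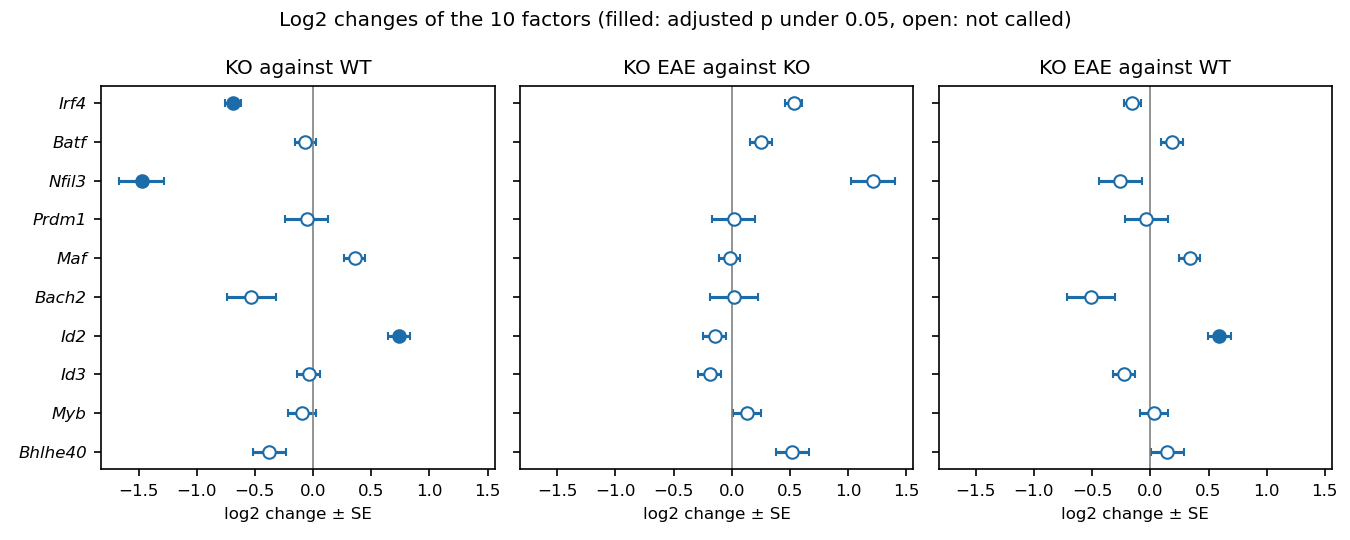
Log2 change of each factor with its approximate standard error for KO over WT, KO EAE over KO and KO EAE over WT in the count table; filled points passed an adjusted p under 0.05 and open points did not. Irf4 and Nfil3 stand at -0.69 and -1.47 for KO over WT and at 0.53 and 1.22 for KO EAE over KO, while Id2 stands at 0.74 and 0.59 over WT in both groups.

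Against WT, Id2 was higher in KO_EAE cells and no other member was called. Id2 changed by 0.59 ± 0.10 (edgeR, adjusted p = 0.016), with means of 97.6 ± 4.26 CPM in KO_EAE and 64.7 ± 0.365 CPM in WT, and was the 1 member called beside 9.36% of all genes, 7.41% higher and 1.95% lower. That call was lost without WT replicate 1 (adjusted p = 0.0936) and without WT replicate 2 (0.11), at log2 changes of 0.62 and 0.59. Irf4 and Nfil3 lay below WT in both KO_EAE libraries but by less than in KO, with log2 changes of -0.15 ± 0.07 (adjusted p = 0.225) and -0.26 ± 0.19 (0.428). Maf changed by 0.34 ± 0.09 (edgeR adjusted p = 0.0787; DESeq2 0.0205). Bach2 changed by -0.51 ± 0.21 (adjusted p = 0.187), and by -0.90 without KO_EAE replicate 1 (0.00212). Id3 fell short of a call at -0.23 ± 0.10 (adjusted p = 0.201). No overlap was seen for 8 members, 4 in each direction, against 60.6% of all genes, 29.9% higher and 30.7% lower. Myeloid markers were higher in KO_EAE than in WT as well, 12 of 15 of them called, and their part in these differences was not tested.

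The normalized table, in which the authors divided counts by size factors, holds KO and WT libraries under the same names but with other values. Dividing by a size factor leaves the ratio of any pair of genes in a library as it was, and yet Irf4 to Batf was 0.3004 and 0.357 in KO and 0.536 and 0.367 in WT there, against 2.12 and 1.999 in KO and 2.90 and 3.44 in WT in the count table. The tables were therefore tested apart, and the difference between them was not tested.

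In the normalized table Id2 was again higher in KO, and none of the other 9 members was called. Id2 had a normalized signal of 5997 and 6062 in KO against 3529 and 3248 in WT libraries. Its log2(signal + 1) changed by 0.83 ± 0.11 (limma, adjusted p = 0.0486), and 0.181% of 12149 genes were called in this table, 0.14% higher and 0.0412% lower. The call was lost in 7 of the 9 alternatives tried, among them each fit with 1 library left out, and the adjusted p of Id2 ranged from 0.02 to 0.888 at log2 changes of 0.77 to 0.89. The authors' deposited table lists Id2 at 0.77 with an adjusted p of 4.09e-08. Id2 to Id3 was 1.60 and 1.74 in KO against 1.13 and 0.940 in WT, the same order as in the count table. Myeloid markers were higher in KO in this table too, with a summed signal of 30246 to 34953 against 10361 to 16831 in WT libraries. Of the 15, 2 were called higher and none lower. Their part in the Id2 difference was not tested.

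Neither of the genes that fell in the count table was called here. Irf4 had a signal of 531 and 558 in KO against 817 and 569 in WT libraries (log2 change -0.32 ± 0.24, limma adjusted p = 0.595). Both KO values lay below both WT values, the nearest pair by a small margin. Nfil3 had 725 and 822 in KO against 980 and 505 in WT libraries, so that WT spanned KO (0.13 ± 0.31, adjusted p = 0.883). Without WT replicate 2 its change was -0.34. The authors' deposited table lists Irf4 at -0.24 (adjusted p = 0.699) and Nfil3 at 0.039 (0.973), so neither fall was called there.

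Prdm1 and Maf had the largest falls in this table, neither of them called. Prdm1 had a signal of 400.3 and 328 in KO against 843 and 589 in WT libraries (log2 change -0.96 ± 0.26, limma adjusted p = 0.223). Maf had 643 and 575 in KO against 1237 and 852 in WT libraries (-0.75 ± 0.23, adjusted p = 0.256), a sign opposite to the 0.36 of the count table. The authors' deposited table lists Prdm1 at -0.64 (adjusted p = 0.0621) and Maf at -0.56 (0.0943). Bach2 had 2531 and 2139 in KO against 2892 and 2955 in WT (-0.33 ± 0.14), and Bhlhe40 had 1891 and 1662 against 2452 and 2191 (-0.39 ± 0.15); both also lay lower in KO in the count table. Batf, Id3 and Myb had log2 changes of 0.11, 0.14 and 0.25. No overlap was seen for 9 of the 10 members, 4 higher and 5 lower in KO, against 45.7% of all genes, 23.3% higher and 22.4% lower.

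**Figure D4:**
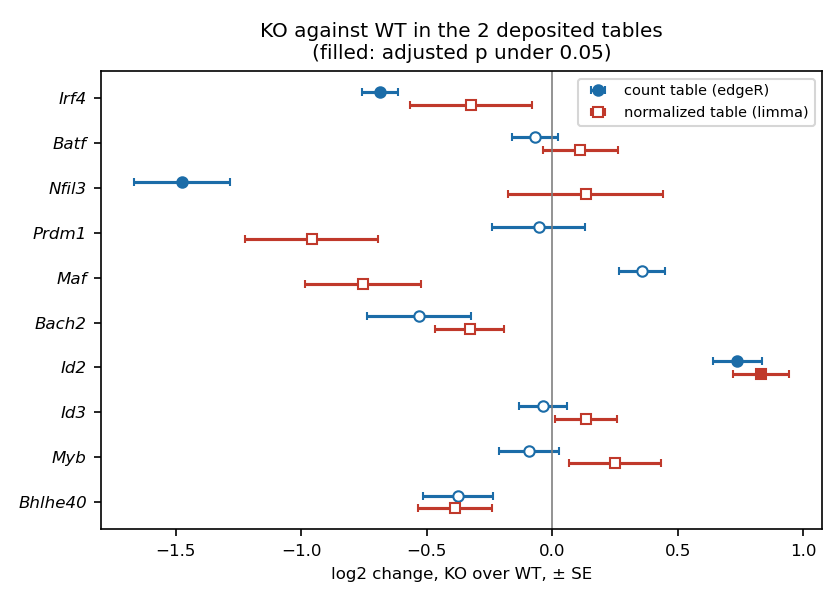
Log2 change of KO over WT with its standard error for each factor in the count table (circles, edgeR) and in the normalized table (squares, limma on log2(signal + 1)); filled symbols passed an adjusted p under 0.05. Id2 is higher in KO in both (0.74 and 0.83), Irf4, Prdm1, Bach2 and Bhlhe40 are below 0 in both, and the other 5 have opposite signs, of which Nfil3 (-1.47 and 0.13) and Maf (0.36 and -0.75) lie farthest apart.

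Partners and relatives of the 10 factors formed a list of 31 genes, 29 of them tested in the count table. In KO against WT, 6 were higher and 5 lower, with a median log2 change of -0.11, beside 9.41% higher and 3.46% lower among all genes. Among those higher, Batf3 and Batf2, relatives of Batf, changed by 3.87 ± 0.42 (edgeR, adjusted p = 0.00234) and 3.12 ± 0.70 (0.0363), with WT levels under 1 CPM. Batf3 had 8.23 and 7.30 CPM in KO against 0.313 and 0.735 CPM in WT libraries. Also higher was Spi1, which encodes the myeloid factor PU.1 that pairs with IRF4, at 3.70 ± 0.24 (edgeR, adjusted p = 0.000289). Spi1 had 55.2 and 60.8 CPM in KO against 5.005 and 3.92 CPM in WT libraries. Tcf4 and Irf8, an E protein and an IRF4 relative of dendritic cells and macrophages, rose by 1.22 and 1.10. Batf3 and Spi1 were called with each library left out in turn, whereas Batf2 (adjusted p of 0.112 to 0.184), Tcf4 and Irf8 lost their call without any 1 of the KO or WT libraries (highest adjusted p 0.128 and 0.0776 for Tcf4 and Irf8). The myeloid marker sum, 1920 to 2360 CPM in KO against 363 to 373 CPM in WT, moved with these 5 genes, and its part in their rises was not tested.

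The 5 partners called lower were Fosl1, Maff, Mafk, Irf1 and Tcf12. Fosl1, which encodes the AP-1 subunit FRA1, had 0.0568 and 0.205 CPM in KO, close to or under the limit of 3 reads, against 1.31 and 1.47 CPM in WT libraries (edgeR, adjusted p = 0.0248). Maff and Mafk encode small MAF proteins that pair with BACH2. Maff had 14.9 and 45.0 CPM in KO against 117 and 128 CPM in WT libraries (log2 change -2.04 ± 0.46, edgeR adjusted p = 0.0372). Mafk, Irf1 and Tcf12 had log2 changes of -0.59, -0.39 and -0.29. Leaving out either WT library ended all 5 of these calls, leaving 0 genes called lower in the list. The list held 3 to 8 genes called higher and 0 to 6 called lower when each of the 6 libraries was left out in turn. Among other AP-1 genes, Fosl2 had 39.3 and 101 CPM in KO against 165 and 219 CPM in WT libraries, a log2 change of -1.46 that was not called (adjusted p = 0.0779) except without KO replicate 2 (-2.29, 0.0186). Jun, Junb, Jund and Fos had log2 changes of -0.30, -0.02, -0.07 and -0.16 and were not called.

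Genes that effector Treg cells use did not move in 1 direction in the count table. Of the 28 tested, 5 were higher and 7 lower in KO than in WT, with a median log2 change of -0.07. Of all genes tested, 9.41% were called higher and 3.46% lower. Among the 5 higher were the receptors Havcr2, Pdcd1 and Cxcr3 and the ectoenzyme Entpd1, at log2 changes of 2.004, 0.74, 0.65 and 0.69. Myeloid markers were higher in KO as well, and their part in these rises was not tested. Among the 7 lower were the growth factor Areg at -2.67 ± 0.37 (edgeR, adjusted p = 0.00612), the cytokine Il10 at -1.67 ± 0.22 (0.005), the chemokine receptor Ccr8 at -0.72 and the checkpoint receptor Ctla4 at -0.69. Il10, a gene on which IRF4, PRDM1 and MAF act, had 11.0 and 10.5 CPM in KO against 29.8 and 38.6 CPM in WT libraries. These counts moved with single libraries: without KO replicate 2 none was called higher, and without KO replicate 1 none was called lower, while 11 were called lower with either KO_EAE library left out. Areg lost its call without KO replicate 1 (adjusted p = 0.0568), Il10 without either KO library (0.0589 and 0.0613), and each of the other 6 named genes in at least 3 of the 4 fits that left out a KO or WT library.

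Of 17 genes of resting Treg cells, 1 rose and 1 fell in KO against WT, with a median log2 change of -0.09. The shares called among all genes, for this list and the next, were 9.41% higher and 3.46% lower. Dapl1, a marker of naive T cells, changed by 0.74 ± 0.16 (edgeR, adjusted p = 0.0328). Dapl1 lost its call without any 1 of the KO or WT libraries. Tcf7 and Lef1, factors of resting T cells, had log2 changes of 0.13 and 0.17 and were not called. Of 13 tested Treg and T cell markers 5 were not called, among them Cd3e, Cd3d and Cd4 at log2 changes of -0.02, -0.08 and 0.04. The other 8 fell and none rose, led by Gpr83 at -1.76, Lrrc32 at -1.65 and Il2ra at -0.87. The count of those called lower was 2 with either KO library left out and 10 with either KO_EAE library left out; Gpr83 lost its call in the first case (adjusted p = 0.0622 and 0.0687).

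**Figure D5:**
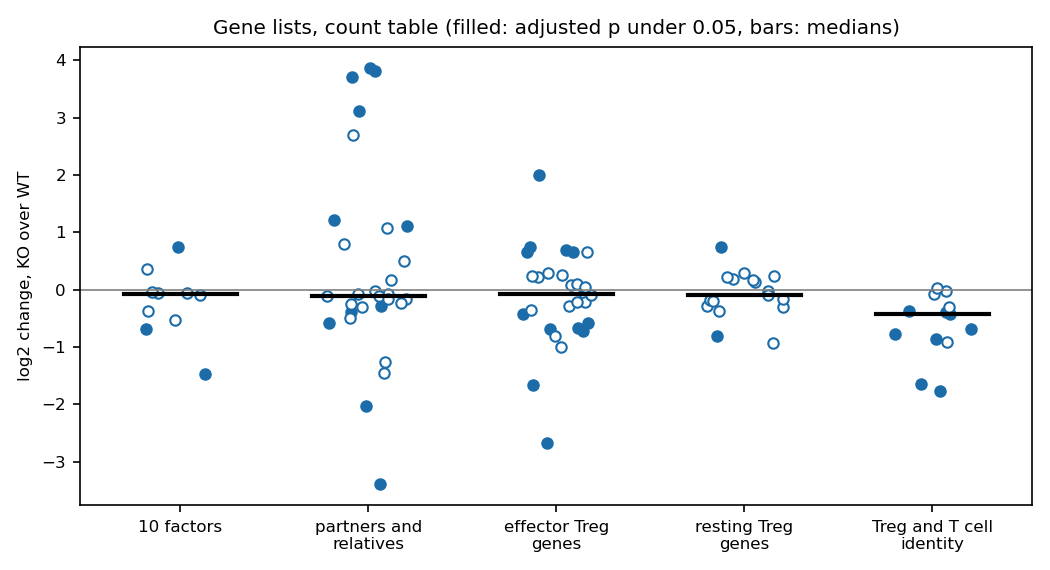
Log2 change of KO over WT in the count table for each tested gene of 5 lists (the 10 factors, their partners and relatives, effector Treg genes, resting Treg genes, and Treg and T cell identity genes); filled points passed an adjusted p under 0.05 and bars are list medians. The medians of the first 4 lists lie between -0.11 and -0.07, with called genes on both sides of 0, and that of the identity list lies at -0.43 with 8 genes lower and none higher.

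Between KO_EAE and KO, edgeR called no gene of the partner, effector or resting lists. DESeq2 called 1 partner in each direction and 1 effector gene higher, and without KO_EAE replicate 1 edgeR called 2 partners, 2 effector genes and 1 resting gene higher. Against WT, 7.41% of all genes were called higher and 1.95% lower in KO_EAE. In these lists KO_EAE had 4 partners higher and none lower, 3 effector genes higher and 3 lower, and 1 resting gene in each direction. Spi1 was among those higher there too, at 3.40. In the normalized table no partner and no effector gene was called between KO and WT (limma, 26 and 28 tested). Of the effector genes, 13 lay lower and 5 higher in KO there without overlap, against 22.4% and 23.3% of all genes. Their median log2 change was -0.20. Several genes named above differed in sign between the tables. Il10 had a log2 change of 0.53 in the normalized table against -1.67 in the count table, Havcr2 -0.81 against 2.004, Pdcd1 -0.43 against 0.74, Entpd1 -0.52 against 0.69 and Irf8 -0.09 against 1.10. Spi1 had 0.58 there against 3.70. Of 13 tested Treg and T cell markers, 3 were called lower in KO there and none higher, beside 0.0412% of all genes called lower. Lrrc32 and Gpr83, also called lower in the count table, were among them, at -1.56 and -1.37 (limma, adjusted p = 0.0385 for each). With no filter on low values neither was called (adjusted p = 0.0692). Dapl1 was the 1 resting gene called, at 1.98 ± 0.23 (adjusted p = 0.0396, and up to 0.888 with 1 library left out).

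The genes whose profile over the 6 libraries was nearest to that of a member were found among 8691 genes of at least 20 CPM, by the distance between centred log2 levels. Nearest to Irf4 were Prr7 (distance 0.120) and the glucose transporter gene Slc2a1 (0.132). Slc2a1 had 112 and 109 CPM in KO_EAE, 79.7 and 78.5 CPM in KO, and 130 and 137 CPM in WT libraries. Nearest to Nfil3 were Gem, a small GTPase gene, and Gla, at the wider distances of 0.295 and 0.311. Id2 was followed most closely by Prcp (0.0646) and Hexa (0.0728), both of which encode lysosomal enzymes. Hexa had 115 and 116 CPM in KO_EAE, 119 and 134 CPM in KO, and 76.6 and 75.2 CPM in WT libraries.

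Maf lay nearest to Scp2 and Wdr12, and Bach2 to Erf and Ash1l. The remaining neighbours were Nhp2 and Timm23 for Batf, Crmp1 and Hsd17b7 for Prdm1, Oma1 and Rbm28 for Id3, Meaf6 and Rpap1 for Myb, and Nasp and Rnf125 for Bhlhe40. Among the 10 members themselves, the 6-library profiles of Irf4 and Nfil3 had a Pearson r of 0.97, those of Nfil3 and Bhlhe40 of 0.89 and those of Maf and Id2 of 0.96. The most negative r was -0.84, for Batf and Id3, followed by -0.80 for Bach2 and Id2. These values describe 6 libraries in 3 groups that share their depth scaling, and they carry no test.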

How the data were processed

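Per the labels' protocols, sorted mouse Treg cells from spleen and peripheral lymph nodes were lysed, RNA was isolated with a column kit, and NEBNext Ultra II libraries were sequenced on a NextSeq500. HISAT2, HTSeq, DESeq2 and mm10 are named per the submitters' processing notes; no source used here gives versions, annotation or strand use. The authors deposited 3 tables: raw counts of reads per gene, whole numbers, in 6 libraries; a signal per gene for KO and WT, which the authors made by dividing counts by size factors; and their own comparison of KO with WT, with log2 fold changes, a test score and p-values, per the file headers. Values from the authors' deposited table are named as such.

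Rows that name no gene were left out (25 of 24449 in the count table and 27 of 23420 in the normalized table, holding up to 0.217% and 0.284% of a library). The number of unused columns with values per sample was 0. Chi-square values divided by their degrees of freedom were 36.5 between the KO_EAE, 22.0 between the KO and 18.8 between the WT replicates, above sampling noise, so each library counted as 1 replicate.

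The count test used edgeR 4.0.16 in R 4.3.3 (filterByExpr with a minimum count of 10 and a minimum total of 15, TMM, glmQLFit and glmQLFTest), with all 6 libraries in 1 fit, 1 coefficient a group, 3 residual degrees of freedom and Benjamini-Hochberg adjustment over 14548 genes at a threshold of 0.05. All 10 members passed the filter. Standard errors given with edgeR are approximations, obtained as the absolute log2 change over the square root of F. The signal was tested with limma 3.58.1 (eBayes with trend) on log2(signal + 1) over 12149 genes with a mean of at least 10, so fold changes of low genes are understated. There, all values (100%) were whole multiples of the value of 1 read (tolerance 0.02), and edgeR on the recovered reads called 12 genes. DESeq2 1.42.0 was an alternative, beside other size factors, no filter on low values, other pseudocounts, only the libraries compared, a replicate block, and each library left out in turn. Scripts were tested on simulated data.

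The 10 members and the gene lists were chosen with earlier results of these data known. List genes are named by a rule: per list and comparison, the 4 called genes that rose most and the 4 that fell most, if they averaged 5 CPM or more, with Bcl11b and Foxp3 as checks and the 2 nearest genes of each member. Batf2, Batf3, Fosl1, Fosl2, Jun, Junb, Jund, Fos, Tcf7, Lef1, Cd3e, Cd3d and Cd4 were named beside them after their values were seen, as were the genes whose sign differed between the tables. Of the list genes that the rule names, 2 are not reported here. The call counts of the lists include genes under 5 CPM. List genes matched by symbol for 144 of 145 in the count table and for 139 in the normalized table, where 4 more matched by synonym. Gene positions and exon lengths are from the GENCODE annotation of GRCm38 and are 1-based; promoter windows are from RefSeq.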

Additional observations from a re-analysis of the deposited data

How the results depend on the processing

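Of the log2 changes of named genes recomputed under each alternative, 1046 kept their direction and their side of the threshold, 206 lost a call, 16 gained one and 24 turned sign, all of the last for uncalled changes. In the count table, the falls of Irf4 and Nfil3 and the rise of Id2 in KO against WT held in each of the 11 alternatives. In the normalized table Irf4 and Nfil3 were not called, and Nfil3 changed by 0.13. Id2 lost its call there in 7 of the 9 alternatives.

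In KO against WT, edgeR called 3121 genes and 5 of the 10 factors with only the 4 libraries compared, and 846 to 3087 genes and 3 to 5 factors with 1 library left out. In KO_EAE against KO, DESeq2 called 131 genes and 2 factors, the fits with only the 4 libraries compared and with the replicate block called 0 genes each, and 0 to 313 genes and 0 to 1 factors were called with 1 library left out. In KO_EAE against WT, DESeq2 called 2249 genes and 2 factors, the 4 libraries compared gave 782 genes, and leaving out 1 library gave 603 to 3762 genes and 0 to 2 factors. The normalized table gave 9 genes and 0 factors with a pseudocount of 0.5, 45 genes with 5, 1 gene and 0 factors with no filter, 12 genes and 0 factors with edgeR on recovered reads, 90 genes with the replicate block, and 0 to 71 genes and 0 factors with 1 library left out.

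Log2 changes that turned sign when 1 library was left out ranged as follows. In KO against WT, Batf lay from -0.13 to 0.016, Prdm1 from -0.28 to 0.23, Id3 from -0.12 to 0.042 and Myb from -0.22 to 0.045. In KO_EAE against KO, Prdm1 lay from -0.12 to 0.15, Maf from -0.12 to 0.081, Bach2 from -0.36 to 0.32, Bcl11b from -0.41 to 0.13 and Foxp3 from -0.095 to 0.028. In KO_EAE against WT, Prdm1 lay from -0.26 to 0.25 and Myb from -0.072 to 0.17. In the normalized table Nfil3 lay from -0.34 to 0.61, Foxp3 from -0.16 to 0.0062, Havcr2 from -1.97 to 0.36 and Irf8 from -0.30 to 0.11. With no filter on low counts, KO_EAE against KO gave -0.011 for Prdm1 and -2e-04 for Bach2. With the replicate block it gave -0.0084 for Bach2. The causes were not tested.

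Deviations of same-numbered libraries had correlations of 0.214 (KO_EAE and KO), -0.168 (KO_EAE and WT) and 0.029 (KO and WT) for counts and 0.003 for the normalized signal. Such low correlations cannot exclude a shared sort or batch. The labels name no pairing, so the main fits used none. With the replicate block, 1668, 0 and 1301 genes and 3, 0 and 1 factors were called in KO against WT, KO_EAE against KO and KO_EAE against WT. Groups of 2 libraries limit each test more than depth does for these factors, whose lowest count was 598 reads. A fit that leaves a group with 1 library assumes that it varies like the others.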

Other observations

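The other cell types for which markers were listed gave smaller sums than myeloid cells in the count table. B cell markers summed to 75.6 to 152 CPM in KO_EAE, 87.1 to 141 CPM in KO and 44.6 to 48.7 CPM in WT libraries, with 1 of 10 called higher in KO than in WT. Plasma cell markers matter for Prdm1 and Irf4 because plasma cells need both. Their sums were 148 to 180 CPM in KO_EAE, 139 to 182 CPM in KO and 112 to 125 CPM in WT libraries. Of 5 tested, 1 was called higher in KO than in WT, and the median log2 change was 1.49. Within these sums, Xbp1 alone had 95.1 and 97.2 CPM in KO and 104 and 102 CPM in WT libraries. Jchain had 36.7 and 68.8 CPM in KO against 3.13 and 19.2 CPM in WT libraries (log2 change 2.23, edgeR adjusted p = 0.12). All 3 tested erythroid markers were called higher in KO, at sums of 18.0 to 31.8 CPM in KO_EAE, 16.6 to 36.3 CPM in KO and 2.27 to 3.44 CPM in WT libraries, while Hba-a1, Hbb-bs and Hbb-bt were at 0 in all 6. The CD8 markers Cd8a and Cd8b1 were not called, with sums of 19.8 to 21.5 CPM in KO_EAE, 19.8 to 24.6 CPM in KO and 25.5 to 27.3 CPM in WT libraries. The part of these cells in the values of the 10 factors was not tested.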
